A study of Mus musculus with 10 samples.

Results

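The S100 genes encode small calcium-binding proteins, and 10 of them were followed here in the distal colon of mice with T-cell transfer colitis: S100a1, S100a3, S100a4, S100a6, S100a8, S100a9, S100a10, S100a11, S100a13 and S100g. They were chosen by name, with earlier results of these data known. Their values were taken from every probe set that the platform annotation gives to 1 of these genes alone. That rule left 9 measured genes with 12 probe sets, out of 18193 genes and 34945 probe sets in the series. S100a11 has 1 probe set, which is annotated to several genes, so it has no value here. No filter on low signal was applied.

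Each Affymetrix mouse GeneChip array measured RNA from the distal colon of 1 Rag1-/- mouse on the C57BL/6 background, a host whose own T and B cells cannot form. Every mouse was injected with T cells when it was 10 weeks old, and tissue was taken 2 to 3 months later, when the mice were 4 to 5 months old. The 4 control mice were injected with regulatory T cells (Tregs) and their colons are labelled non-inflamed, whereas the 6 inflamed mice were injected with naïve T cells. The labels grade 3 of the inflamed colons as severely and 3 as moderately inflamed. Host genotype and strain were thus the same in all groups. The labels give every mouse the same range of age and of time since injection, not its own, and mice were killed at various times, so the groups may differ in both. Injected cell type and inflammation cannot be told apart, and no untreated Rag1-/- colon is among the samples. Expression of a probe set is given on the log2 scale, on which a difference of 1 is a doubling. The text gives means with their SD and n, differences with their standard error (SE), and p-values from limma adjusted over all 18193 genes by the Benjamini-Hochberg method, called at 0.05. For counts by probe set, and for a further probe set of a gene, the adjustment was over all 34945 probe sets.

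S100 proteins carry paired EF-hand loops that bind calcium, and most work as dimers that change shape on binding it and then dock onto other proteins. S100a8 and S100a9 form calprotectin, a metal-sequestering protein that neutrophils and some monocytes hold in their cytosol and release at inflamed sites, and fecal calprotectin is a clinical marker of intestinal inflammation. Other members bind annexins or cytoskeletal proteins inside the cell, and S100g (calbindin-D9k) ferries calcium across absorptive cells of the gut under the control of vitamin D.

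In a RefSeq gene table (assembly GRCm38.p6), S100g lies on the X chromosome and the other 9 members on chromosome 3. The promoter windows of the members whose values moved most are shown because they include the genes with the largest rises and the fall seen in severe disease. Each window runs from 250 bases before to 50 bases after the RefSeq start, is printed 5′ to 3′ on the strand of the gene, and has the TATAAA core of a TATA box in capitals. S100a8 is at chr3:90668821-90669120 on the plus strand, S100a9 at chr3:90695672-90695971 on the minus strand, S100a4 at chr3:90603520-90603819 on the plus strand, and S100g at chrX:162964550-162964849 on the minus strand.
S100a8: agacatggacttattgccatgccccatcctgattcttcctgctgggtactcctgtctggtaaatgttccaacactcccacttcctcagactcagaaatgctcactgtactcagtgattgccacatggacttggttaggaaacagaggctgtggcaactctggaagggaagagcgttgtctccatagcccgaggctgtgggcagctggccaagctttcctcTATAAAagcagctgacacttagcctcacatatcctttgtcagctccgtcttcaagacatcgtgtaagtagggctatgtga
S100a9: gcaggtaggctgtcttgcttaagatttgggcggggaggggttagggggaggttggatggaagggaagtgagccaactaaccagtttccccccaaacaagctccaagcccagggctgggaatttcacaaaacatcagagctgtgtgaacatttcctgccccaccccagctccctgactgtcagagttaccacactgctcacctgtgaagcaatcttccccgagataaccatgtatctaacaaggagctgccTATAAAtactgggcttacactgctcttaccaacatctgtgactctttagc
S100a4: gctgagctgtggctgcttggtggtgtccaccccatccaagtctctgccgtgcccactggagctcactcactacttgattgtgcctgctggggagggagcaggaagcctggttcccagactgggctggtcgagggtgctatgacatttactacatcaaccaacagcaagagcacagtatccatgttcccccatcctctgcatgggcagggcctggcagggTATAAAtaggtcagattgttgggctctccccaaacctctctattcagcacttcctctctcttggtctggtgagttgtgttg
S100g: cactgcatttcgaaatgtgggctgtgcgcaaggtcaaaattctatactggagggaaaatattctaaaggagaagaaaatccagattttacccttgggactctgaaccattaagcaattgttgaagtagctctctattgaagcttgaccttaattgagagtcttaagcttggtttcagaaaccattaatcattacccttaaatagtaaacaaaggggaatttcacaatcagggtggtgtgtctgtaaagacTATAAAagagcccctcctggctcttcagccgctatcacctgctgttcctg

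The TATAAA letters began at position -30 in S100a8 and at -31 in S100a4, counting the annotated start as 0, and at position 0 in both S100a9 and S100g. Of the 9 members with a window in the table, 5 held TATAAA on the gene strand (the last being S100a3, in 1 of its 4 windows), and 8.32% of all 32851 windows did. A search of both strands for TTNNGNAA, a C/EBP-type motif found in 40.7% of all windows, matched S100a3, S100a8, S100a9 and S100g. The AP-1-type letters TGANTCA, in 7.81% of all windows, matched only S100a11 among them. The STAT-type letters TTCNNNGAA, in 8.3% of all windows, matched no member, and the Cdx-type letters TTTATG, in 11.9%, matched S100a6. These are matches of letters only, and no binding was measured.

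The neighbours S100a1 and S100a13 are transcribed away from each other, and their windows share 204 bases. The S100a1 window, at chr3:90514281-90514580 on the minus strand, is shown with the shared bases in capitals because these neighbours gave different readouts.
S100a1: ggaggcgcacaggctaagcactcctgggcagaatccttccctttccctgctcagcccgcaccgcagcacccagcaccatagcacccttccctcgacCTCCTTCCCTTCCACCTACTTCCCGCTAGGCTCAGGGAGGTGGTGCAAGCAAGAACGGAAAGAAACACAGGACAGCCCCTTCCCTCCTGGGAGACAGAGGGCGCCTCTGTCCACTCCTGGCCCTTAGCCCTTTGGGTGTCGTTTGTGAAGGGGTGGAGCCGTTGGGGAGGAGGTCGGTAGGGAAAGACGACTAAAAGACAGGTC

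In the 6 inflamed colons together, S100a8, S100a9, S100a4 and S100a10 were higher than in the 4 control colons, S100a1 was lower, and S100a3, S100a6, S100a13 and S100g did not pass the test. This made 4 members higher and 1 lower, where 18.5% of all genes were called higher and 21.2% lower. The 5 called members were also those whose inflamed and control colons did not overlap, as was true of 31.7% of all genes. By probe set, 7 of 12 were called, 5 higher and 2 lower, against 16.5% higher and 19.4% lower among all probe sets. Because the members were chosen with earlier results of these data known, these shares and those by grade do not test the family. The gene lists below were chosen in the same way, so their counts are to be read beside the shares of all genes and test no list. The median log2 difference was 0.198 over the 9 members and 0.0306 over all genes. The highest 2 of the 9 differences, those of S100a8 and S100a9, were 7.66 and 6.34, and the next was 1.06. When arrays were centred on the pan-epithelial genes instead, the median of all genes moved to -0.178 and the share of called genes that were higher from 46.7% to 18%. Under that centring S100a3, S100a6 and S100a13 changed sign without passing the test, S100a10 lost its call, and the other 4 called members kept theirs. The pan-epithelial genes were not a steady reference: of 17 measured, 6 rose and 1 fell in inflamed colons, with a highest difference of 1.58.

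**Figure D1:**
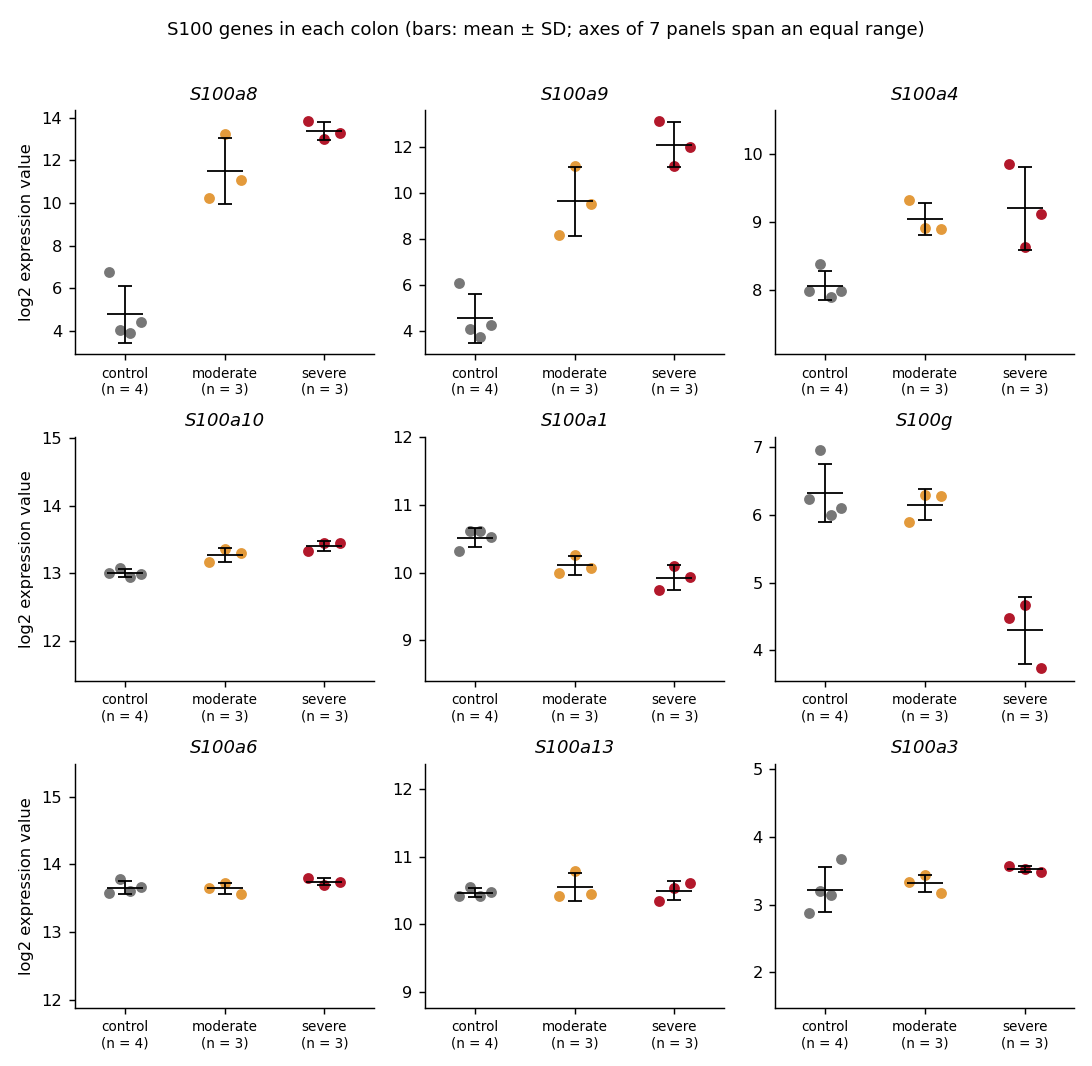
Log2 expression value (vertical axis) of the 9 measured S100 genes in each colon, grouped as control (n = 4), moderate (n = 3) and severe (n = 3). Points are single colons, bars are mean ± SD, and all panels except S100a8 and S100a9 span an equal range. S100a8 and S100a9 stood far above control in every inflamed colon, while S100g was low in the 3 severe colons alone.

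S100a8, the smaller calprotectin subunit, had log2 values of 6.77, 4.04, 3.90 and 4.43 in control colons 1 to 4. The moderate colons were at 10.24, 13.22 and 11.06, and the severe colons at 13.82, 13.01 and 13.29. Every inflamed colon was above every control colon, control 1 stood above the other controls, and moderate 2 lay within the severe range. The inflamed mean of 12.44 ± 1.44 (SD, n = 6) exceeded the control mean of 4.78 ± 1.34 (SD, n = 4) by 7.66 (SE 0.76), a 202-fold rise (adjusted p = 1.73e-05), and no other gene in the series rose more. Without control 1 the log2 difference was 8.32. The exact permutation test over the 10 arrays gave p = 0.00476, the smallest two-sided p that 4 against 6 allows.

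S100a9, its partner subunit, gave a similar picture at a somewhat smaller size. Control colons 1 to 4 were at 6.10, 4.06, 3.72 and 4.27, moderate colons at 8.18, 11.20 and 9.54, and severe colons at 13.12, 11.20 and 12.03. The inflamed and control colons did not overlap, control 1 was again the highest control, and moderate 2 equalled severe 2. The log2 difference was 6.34 (SE 0.83), an 81.0-fold rise (adjusted p = 0.000109), the fourth largest of all genes.

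In controls 2, 3 and 4 both calprotectin genes lay at 3.72 to 4.43, close to the lower quartile of the arrays (3.82 to 3.92), so the folds start from dim signal and their size is less certain than their direction.

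Neutrophil genes were also higher in inflamed colons. Of 16 listed neutrophil genes other than the S100 genes, 14 were measured (all but Ly6g and Retnlg) and 10 rose in inflamed colons, with a median log2 difference of 1.07 over the 14. Against control, 11 of the 14 rose in severe and 4 in moderate colons, with medians of 1.39 and 0.707. The largest rises were Ltf, the iron-binding lactoferrin of neutrophil granules, at 3.07, the stefin Stfa2l1 at 2.10 and the gelatinase Mmp9 at 2.07. The azurophil granule genes Mpo and Elane did not pass the test, at 0.10 and -0.10. Both were below the array medians in every colon, Mpo at 3.47 to 4.35 and Elane at 4.57 to 5.33. The mean log2 value of the list was 4.42 to 4.55 in control, 5.13 to 5.67 in moderate and 5.49 to 6.75 in severe colons. Control 1, high in both calprotectin genes, was at 4.51, within the range of the other controls. Relative to this mean within each array, S100a8 was 6.49 and S100a9 5.18 higher in inflamed than in control colons on the log2 scale. In control colons the list mean was itself dim, below the array medians (5.36 to 5.40), and the list includes genes that did not pass the test. The subtraction is thus not a correction for the number of neutrophils. Macrophage and monocyte genes rose as well, in 11 of 13 measured, and their mean went from between 6.998 and 7.265 in control to between 8.123 and 9.574 in inflamed colons. The part of these cells in the rise of S100a8 and S100a9 was not tested, and in bulk tissue more cells of a type cannot be told apart from more RNA per cell.

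**Figure D2:**
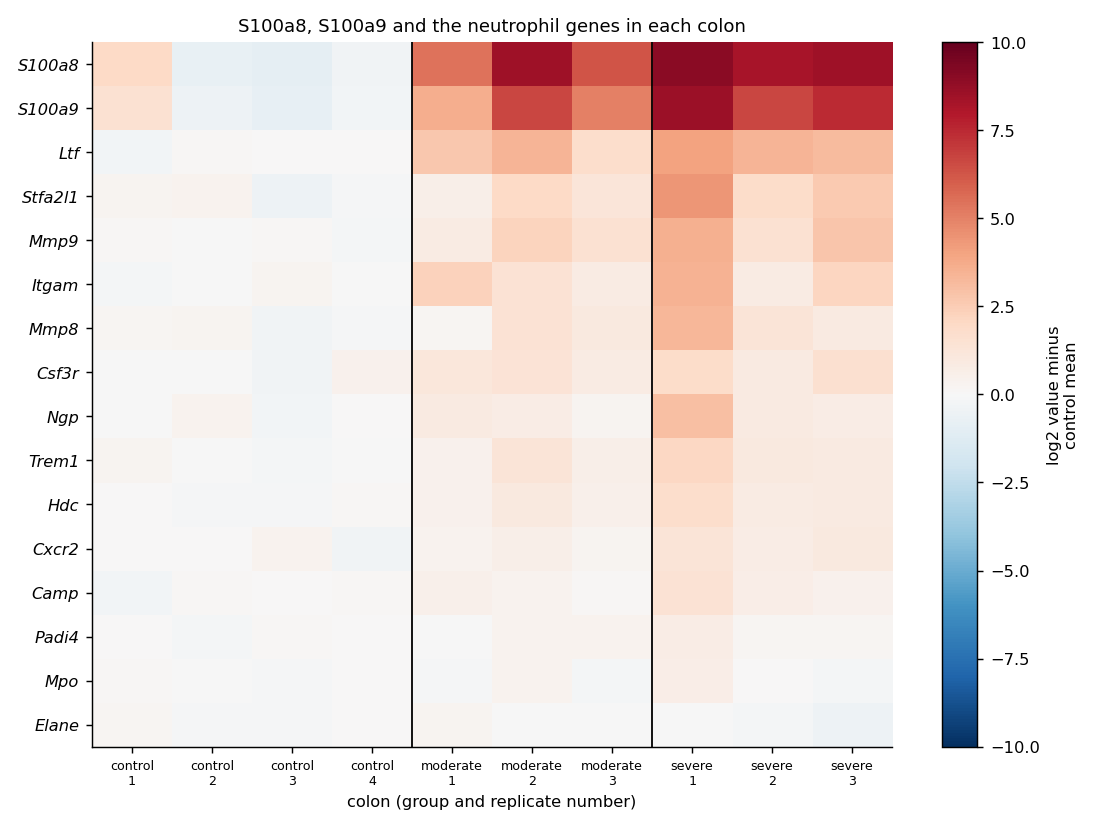
Log2 value of each gene in each colon minus the mean of the 4 control colons, for S100a8, S100a9 and the 14 measured neutrophil genes (rows), with colons ordered control, moderate and severe (columns). Red is above and blue below the control mean, and rows are ordered by the inflamed minus control difference. Both S100 genes were red in all 6 inflamed colons, the other genes were paler, and severe 1 was the darkest inflamed colon for most of them.

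Genes closest to the calprotectin genes in their profile over the 10 arrays, by root mean square difference of log2 values centred on control, were 6 in all, 4 of them chemokines. For S100a8 they were the neutrophil chemokine Cxcl5 (1.28), the cornified envelope gene Sprr2h (1.43), the interferon-induced chemokine Cxcl9 (1.59), the acute phase gene Lrg1 (1.7) and the chemokine Cxcl2 (1.79). For S100a9 they were Cxcl5 and Cxcl3 (0.912 each), Cxcl2 (0.968), Lrg1 (0.972) and Sprr2h (1.05). These distances are descriptions of the same 10 libraries and carry no test.

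S100a4, a regulator of cell motility made by fibroblasts, macrophages and T cells, rose about 2-fold. Its log2 values were 7.97, 8.38, 7.90 and 7.99 in control, 9.32, 8.91 and 8.90 in moderate and 9.86, 8.64 and 9.11 in severe colons. No inflamed colon reached down to the highest control, and severe 1 was the highest of all. The inflamed minus control difference was 1.06 (SE 0.20), 2.09-fold (adjusted p = 0.00134). Among 12 fibroblast genes, 7 fell and 1 rose, the rise being Thy1 at 0.81, which T cells also express, and the largest falls were Mfap5 at -1.87, Dpt at -1.79 and Lum at -1.77. In contrast, 9 of 11 measured T cell genes rose, led by Cd3g at 4.36, and so did the macrophage genes. Within each array, S100a4 rose by 1.80 relative to the fibroblast mean but fell by 0.44 relative to the T cell mean and by 0.51 relative to the macrophage mean. Its nearest profiles were those of Jdp2 (0.163), Akna (0.179), the cytoskeletal linker Msn (0.184), the chemokine Ccl1 (0.187) and Milr1 (0.194). The mean fibroblast level was 8.988 to 9.352 in control and 8.003 to 9.238 in inflamed colons, and that of T cells 5.26 to 5.39 and 6.47 to 7.25, and their part in the rise of S100a4 was not tested.

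S100a10, which joins annexin A2 in a heterotetramer beneath the plasma membrane, rose slightly. It was at 13.01, 13.08, 12.95 and 12.99 in control, 13.16, 13.36 and 13.30 in moderate and 13.32, 13.44 and 13.44 in severe colons. The groups did not overlap but lay close together, with a difference of 0.33 (SE 0.07), 1.26-fold (adjusted p = 0.00249). Its second bright probe set rose by 0.38 (adjusted p = 0.00693), while the third, a dimmer probe set, gave 0.02 (adjusted p = 0.905). With arrays centred on the pan-epithelial genes the difference was 0.125 (adjusted p = 0.23).

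Annexins, the binding partners of several S100 proteins, included 6 that rose and 1 that fell among 11 measured, with a median log2 difference of 0.315. Anxa2 itself, the partner of S100a10, was at 12.64 to 12.93 in control and 13.21 to 13.54 in inflamed colons, a rise of 0.61 (adjusted p = 0.000182). Anxa8 rose most, by 2.30 (adjusted p = 2.37e-05), and Anxa13, an annexin of intestinal epithelium, fell by 1.14. Of the 12 other intracellular partners listed, 5 rose and 3 fell, with a median of 0.146. Both counts stand beside 18.5% of all genes called higher and 21.2% lower. Plat, the tissue plasminogen activator that S100a10 helps to capture, rose by 1.77, Il1a, released in complexes with S100a13, by 1.64, and Ahnak, which binds the S100a10 and annexin A2 complex, by 0.43. Syt1 fell by 1.17, Fgf1, another cargo of S100a13, by 1.01, and the calcium channel Ryr2, which S100a1 modulates, by 0.92. These sizes depend on the probe set: with the mean over the probe sets of a gene the differences were 1.01 for Plat, -0.347 for Syt1, -0.316 for Ryr2 and 0.404 for Anxa2, all still called, and 0.0554 for Ahnak, which lost its call.

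S100a1, a calcium sensor best known from muscle, was lower in inflamed colons. Its log2 values were 10.32, 10.62, 10.61 and 10.52 in control, 9.99, 10.27 and 10.07 in moderate and 9.75, 10.10 and 9.93 in severe colons. Every inflamed colon was below every control colon, by a narrow margin for moderate 2. The difference was -0.50 (SE 0.10), 1.41-fold lower (adjusted p = 0.00207), and its second probe set differed by -0.58 (adjusted p = 0.00112). All 12 smooth muscle genes were lower in inflamed colons, with a median difference of -1.52 and a mean level of 10.25 to 10.60 in control, 8.65 to 9.34 in moderate and 8.59 to 8.82 in severe colons. The pan-epithelial mean was 11.55 to 11.68 in control and 11.69 to 11.93 in inflamed colons. S100a1 fell by 0.71 relative to the pan-epithelial mean and was 0.99 higher relative to the smooth muscle mean within each array. The part of either tissue layer in the fall of S100a1 was not tested.

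S100a13, the neighbour that shares promoter bases with S100a1 and takes part in the release of Fgf1 and Il1a, stayed close to its control level. It measured 10.42, 10.55, 10.42 and 10.48 in control, 10.41, 10.79 and 10.44 in moderate and 10.34, 10.53 and 10.62 in severe colons, and the groups overlapped. The difference was 0.05 (95% interval -0.14 to 0.25, adjusted p = 0.666). Within each array the log2 value of S100a1 minus that of S100a13 fell by 0.55 from control, and it was below every control in 6 of 6 inflamed colons (exact permutation p = 0.00476, two-sided, chosen after the values were seen). S100a1 alone gave the same exact p, so that p-value adds nothing about the pair. The genes nearest to S100a13 in profile were Bpifa2 (0.0473), Fam209 (0.0591), Olfr154 (0.0593), Ddx4 (0.0597) and Nrip2 (0.0605). They were picked for closeness to a gene that hardly changed, so their own small changes follow from that choice. Bpifa2, Olfr154 and Ddx4 were dim, with control means of 2.99, 3.68 and 2.55.

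S100a6 (calcyclin), an epithelial and stromal member that binds Cacybp and annexins, was at 13.57 to 13.79 in control, 13.57 to 13.73 in moderate and 13.69 to 13.80 in severe colons. These ranges overlapped throughout, and the difference was 0.04 (95% interval -0.11 to 0.19, adjusted p = 0.681). S100a3, known from hair follicles, was dim, with all 10 values below the lower quartile of the arrays. It ranged from 2.88 to 3.67 in control, from 3.18 to 3.44 in moderate and from 3.49 to 3.57 in severe colons, and the inflamed minus control difference was 0.20 (adjusted p = 0.274). Control 4 was its highest colon. Without that array the difference was 0.347 and passed the test (adjusted p = 0.0268).

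S100g was low in the severe colons, and the severe and moderate colons lay apart. Its log2 values were 6.25, 6.96, 6.01 and 6.10 in control and 5.90, 6.29 and 6.28 in moderate colons, but 4.48, 4.68 and 3.74 in severe colons. The moderate colons overlapped the controls, and all 3 severe colons lay below every other colon. Severe colons averaged 4.30 ± 0.49 (SD, n = 3) against 6.33 ± 0.43 in control (SD, n = 4), a difference of -2.03 (SE 0.26), 4.08-fold lower (adjusted p = 0.000168). The severe values were dim, with severe 3 below the lower quartile of the arrays (3.82 to 3.92), so the size of this fold is less certain than its direction. Moderate colons averaged 6.16 ± 0.23 (SD, n = 3), a difference of -0.17 from control (95% interval -0.74 to 0.40, adjusted p = 0.663).

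The severe minus moderate difference of S100g was -1.86 (95% interval -2.47 to -1.25), 3.62-fold. Its p-value in limma was the third lowest of 18193 genes and did not pass after adjustment (limma adjusted p = 0.233). The exact permutation test gave p = 0.1, the smallest value that 3 against 3 allows. Over all 6 inflamed colons the difference from control was -1.10 (SE 0.48, adjusted p = 0.0913). That value passed the test without moderate 2 (-1.31, adjusted p = 0.0447) or moderate 3 (-1.31, adjusted p = 0.0451) and in the model of 3 groups (adjusted p = 0.00224).

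**Figure D3:**
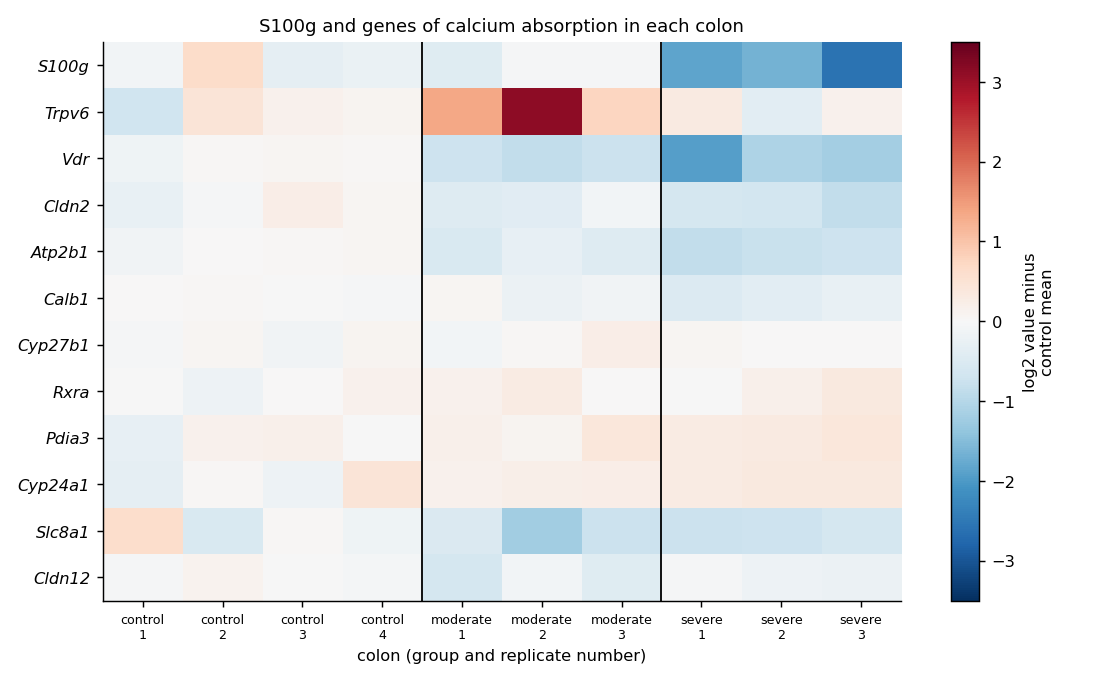
Log2 value of each gene in each colon minus the mean of the 4 control colons, for S100g and 11 measured genes of calcium absorption and vitamin D (rows), with colons ordered control, moderate and severe (columns). Red is above and blue below the control mean. S100g was blue in the 3 severe colons, Trpv6 was red in the 3 moderate colons, and Vdr was blue in all 6 inflamed colons.

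Of the genes of calcium absorption and vitamin D, 11 were measured, and 1 rose and 4 fell in inflamed colons, with a median difference of -0.230. Vdr, the vitamin D receptor, fell by 1.09 (adjusted p = 0.00108), the sodium-calcium exchanger Slc8a1 by 0.76, the basolateral calcium pump Atp2b1 by 0.60, and the tight junction gene Cldn2 by 0.51. With the probe set of largest interquartile range the differences were -1.95 for Slc8a1 and -0.853 for Cldn2. Pdia3 rose by 0.28, a call that was lost without any 1 of controls 1 and 4, severe 1, 2 and 3 and moderate 3 (0.189 to 0.283). Trpv6, the apical channel through which calcium enters, was at 4.74 to 5.89 in control and 5.08 to 5.75 in severe colons but at 6.78, 8.57 and 6.18 in moderate colons. No moderate colon overlapped either other group, and the moderate minus control difference of Trpv6 was 1.74 (adjusted p = 0.0181). It was 1.05 without moderate 2, and the call was lost without control 1 (1.51, adjusted p = 0.0503). Its severe minus moderate difference was -1.71 (adjusted p = 0.817).

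Of 14 absorptive colonocyte genes, 9 fell and 2 rose in inflamed colons, with a median of -0.916, and 10 fell and 2 rose in severe colons. The 2 that rose in inflamed colons were the bile acid transporter subunit Slc51b, by 1.66, and the keratin Krt20, by 0.57, so the mean of the list holds members that moved both ways. Their mean level was 12.11 to 12.40 in control, 10.69 to 11.35 in moderate and 10.04 to 10.91 in severe colons. Relative to this mean within each array, and to its own control mean, S100g stood at 0.98 in moderate and -0.29 in severe colons. Relative to the pan-epithelial mean it fell by 0.39 and 2.23. The colonocyte mean leans on the largest fall in its list, 6.62 in moderate and 8.63 in severe colons, where the list medians were -0.589 and -1.21. The level of S100g relative to that mean is thus not its level relative to colonocyte genes in general. The part of colonocyte loss in the fall of S100g was not tested. Its nearest profiles were those of Rnf152 (0.518), the chloride channel Ano1 (0.531), Cpq (0.545), Nxpe4 (0.547) and Akr1c14 (0.560).

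By grade, severe colons had 4 members higher and 2 lower than control, where 16.1% of all genes were called higher and 18.9% lower. Moderate colons had 4 members higher and 1 lower, where 13.2% of all genes were called higher and 16.7% lower. The severe and moderate comparisons share the 4 control colons and are given side by side. S100a8 was 8.59 above control in severe colons (385-fold) and 6.73 above it in moderate colons (106-fold, adjusted p = 0.000152). S100a9 was 7.58 and 5.10 above control (191-fold and 34.4-fold), S100a4 1.14 and 0.98, and S100a10 0.40 and 0.27. S100a1 differed from control by -0.59 and -0.41. Without control 1, S100a8 was 9.25 above control in severe and 7.39 in moderate colons, and the moderate value was 7.36 without moderate 1 and 5.87 without moderate 2. The moderate value of S100a9 was 5.83 without moderate 1 and 4.32 without moderate 2. In the moderate comparison the calls of S100a10 (adjusted p = 0.0248), S100a1 (0.0203) and S100a4 (0.0116) were the weakest, and members called fell from 5 to 3 without control 3, without moderate 1 or without moderate 3. S100a1 lost its call without control 2 or 3 or moderate 1 or 3 (-0.39 to -0.35), S100a10 without control 3 or 4 or moderate 2 or 3 (0.23 to 0.26), and S100a4 without moderate 1 (0.842, adjusted p = 0.0501).

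**Figure D4:**
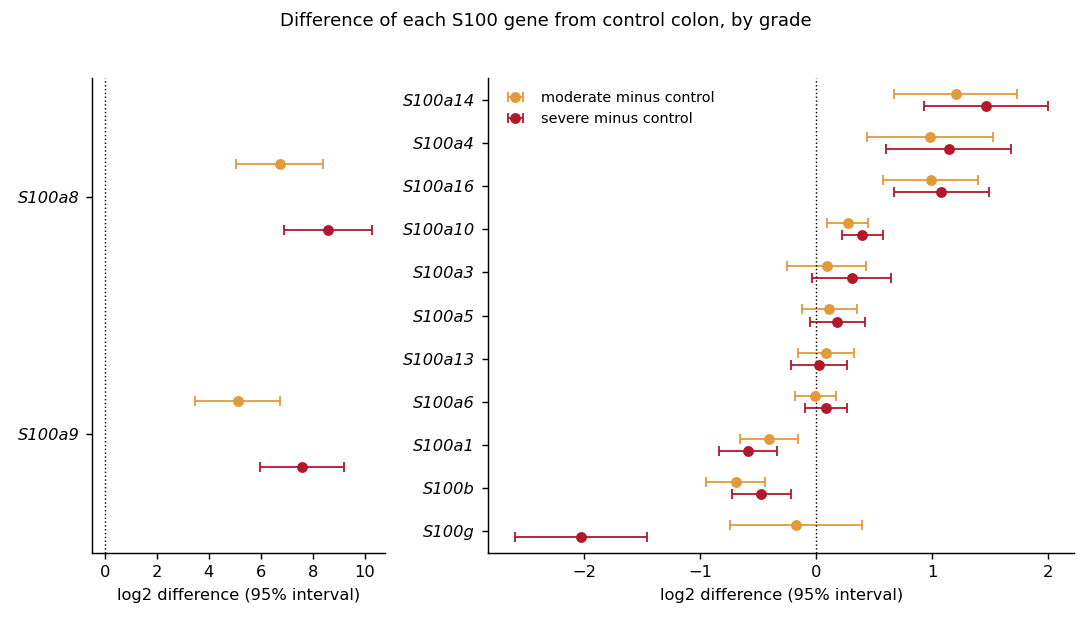
Log2 difference from control (horizontal axis) of all 13 measured S100 genes in moderate (orange, n = 3) and severe (red, n = 3) colons against 4 control colons, with 95% intervals from limma; the left panel has a wider scale. S100a8 and S100a9 lay between 5.10 and 8.59. The severe and moderate intervals of S100g did not overlap, but they share the controls, and severe minus moderate did not pass the test (limma adjusted p = 0.233).

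Between severe and moderate colons limma called no member and no gene (0% of genes higher and 0% lower). At an unadjusted p below 0.05 there were 922 genes, 5.07% of all genes, and 3 members. The methods' t-test called none either. The 3 members were S100g, S100a9 (log2 difference 2.47, 95% interval 0.73 to 4.21, adjusted p = 0.862) and S100a8 (1.86, 95% interval 0.06 to 3.66, adjusted p = 0.98). Severe and moderate colons did not overlap for S100g and S100a3, as for 8% of all genes. The S100a8 difference ranged from 1.23 without moderate 1 to 2.72 without moderate 2, and that of S100a9 from 1.74 to 3.25 without the same arrays. The number of genes called was 20 without moderate 2, 5 without severe 2 and 1 without moderate 1, and no member was among the calls. The mean of the neutrophil list overlapped between grades, with severe 2 at 5.49 below moderate 2 at 5.67.

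Outside the 10 members, 6 further S100 genes were listed and 4 were measured, since S100a7a and S100z have no probe set of their own. S100a14, an epithelial member, was at 9.97, 11.28, 10.77 and 10.47 in control and between 11.64 and 12.21 in inflamed colons, a rise of 1.33 (SE 0.20, adjusted p = 0.000318). S100a16, also made by epithelia, was at 11.55 to 12.47 in control and 12.84 to 13.31 in inflamed colons, a rise of 1.03 (adjusted p = 0.000239), and 1.13 by its other probe set. For both genes the inflamed colons lay above every control colon. S100b, a marker of enteric glia, fell by 0.58 (adjusted p = 0.00101), and by 0.95 in its other probe set. It ranged from 5.41 to 5.64 in control and from 4.69 to 5.28 in inflamed colons, while 5 of 8 measured glial and neuronal genes fell, with a mean of 6.74 to 7.21 in control and 6.08 to 6.29 in inflamed colons, and their part in its fall was not tested. S100a5, dim at 3.89 to 4.40, differed by 0.15 (adjusted p = 0.209). Of the fused-type S100 genes of skin (Flg, Hrnr, Rptn, Tchh and Tchhl1 were measured), limma called 0 in either direction. None had an unadjusted p below 0.05 in limma, and the methods' t-test called none. These genes were dim, with a list mean of 2.92 to 2.98 in control, 2.96 to 3.00 in moderate and 3.00 to 3.07 in severe colons. Those means lay below the lower quartile of the arrays (3.82 to 3.92), so the tests say little about them.

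Among 10 receptors and surface partners through which extracellular S100 proteins act, 4 rose and 2 fell in inflamed colons, with a median difference of 0.0579. Of all genes, 18.5% were called higher and 21.2% lower in that comparison. Emb (embigin), reported to bind S100a8 and S100a9, rose by 2.46, the lipopolysaccharide co-receptor Cd14 by 1.50, Tlr4, a receptor for calprotectin, by 0.75, and Ager, the receptor RAGE, by 0.44. The scavenger receptor Cd36 fell by 1.55 and Mcam by 0.54. Cd14 is also in the list of macrophage and monocyte genes, and the part of those cells in these differences was not tested. With the mean over the probe sets of a gene the differences were 1.58 for Emb, -1.02 for Cd36 and 0.286 for Ager, all still called. Ager was at 5.54 to 5.78 in control and 5.88 to 6.29 in inflamed colons, and Tlr4 at 7.46 to 8.32 and 8.33 to 9.15.

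The colon identity genes, of which 7 of 8 were measured, had means of 12.32 to 12.52 in control and 11.44 to 12.35 in inflamed colons, the lowest being severe 1. In inflamed colons 3 of the 7 fell (Aqp8 by 1.20, Car1 by 0.93 and Muc2 by 0.39) and none rose, while the intestinal regulators Cdx1 and Cdx2 did not pass the test, at -0.11 and 0.10. Of 11 measured squamous genes, which could come from the anorectal edge, 2 rose, Sprr1a by 3.49 and Ivl by 0.25, while the defining genes Krt5, Krt14, Krt13 and Trp63 stayed between 3.28 and 5.84 in every colon. Among genes of other organs, Alb and Krt10 fell and none rose. Endothelial genes fell in 6 of 10. Array medians lay between 5.36 and 5.40, and r between arrays was 0.9893 to 0.9958 within control or within inflamed colons and 0.9625 to 0.9834 between them.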

How the data were processed

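RNA of 10 distal colons was hybridised to Affymetrix mouse GeneChip arrays, 1 per mouse. Per the submitters' processing notes, the authors made the deposited log2 values with Affymetrix Expression Console and RMA, which subtracts background, quantile-normalizes and summarizes each probe set by median polish. Versions are not given in the sources used here. Quantile normalization sets every array to 1 distribution, so only changes relative to the whole are measured. Neither detection calls nor scan dates were examined, and precision is limited by the number of arrays. For RNA extraction the labels and the methods name different reagents.

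From these values, probe sets annotated to 1 gene were kept and each gene was given its brightest probe set by mean over all arrays. Groups came from the labels. The test was limma (version 3.58.1, R version 4.3.3), with lmFit and eBayes, two-sided, Benjamini-Hochberg adjusted over all genes at 0.05, in a model of 2 groups for inflamed minus control and of 3 groups with a shared spread for the other comparisons. Probe sets were fitted separately in the same way and adjusted over all 34945 probe sets annotated to 1 gene. P-values measure the spread between mice. Exact permutation tests enumerated all splits of the arrays. Limma was also run on simulated data with independent genes and far fewer changed genes than were called against control here. That run does not show how well the adjusted p-values hold in these arrays. Members and gene lists were chosen with earlier results of these data known. Named are all members, other S100 genes, up to 3 called genes per list and direction, the 5 nearest profiles of 5 members, and markers that define a tissue; other genes, in counts of 5 or fewer or with a role tied to a member, were named after their values were seen. Promoter windows and gene order came from RefSeq (GRCm38.p6). The value per gene, a filter on dim genes, scaling, variance model, array weights, test, block and arrays left out were varied. Plots were made in Python 3.11.15 (matplotlib 3.10.9).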

Additional observations from a re-analysis of the deposited data

How the results depend on the processing

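Each comparison was recomputed under 22 alternative settings. Of 788 values of the 9 measured members over the 4 comparisons, 744 kept their direction and their side of the threshold, 16 lost a call, 9 gained one and 19 changed sign, and S100a8 and S100a9 kept direction and call throughout. Beyond the values given with the results, S100a10 in severe minus control lost its call with arrays centred on the pan-epithelial mean (0.197, adjusted p = 0.125), and S100a4 in that comparison under the methods' t-test (adjusted p = 0.0546). In moderate minus control S100a10 lost its call with that centring (0.0537) and with the mean of its probe sets (0.197), and S100a1, S100a14 and S100a16 lost theirs under the methods' t-test (adjusted p = 0.0541, 0.0634 and 0.0525). S100g in inflamed minus control gained a call with that centring (-1.31) and with array weights (-1.21), S100a3 in severe minus control without control 4 (0.455, adjusted p = 0.0111) and S100a5 there without severe 1 (0.299, adjusted p = 0.0447). Thy1, Ager, Ahnak, Pdia3 and Ivl lost their calls in inflamed minus control with that centring, Ahnak and Pdia3 also with the mean of their probe sets, Ivl with the probe set of largest interquartile range, and Pdia3 and Stfa2l1 with the replicate block. Trpv6 in moderate minus control, whose alternatives were added after the data were seen, lost its call under the methods' t-test (adjusted p = 0.129). The cause was not tested. The changes of sign were in differences not called with the main settings. Centring on the pan-epithelial mean, which shifts every difference down, gave -0.011 for S100a3, -0.169 for S100a6, -0.155 for S100a13, -0.061 for S100a5 and -0.112 for Mpo in inflamed minus control. It gave -0.115 for S100a6, -0.175 for S100a13 and -0.0193 for S100a5 in severe minus control, and -0.126 for S100a3, -0.135 for S100a13 and -0.103 for S100a5 in moderate minus control. Repeated quantile normalization gave 0.0296 for S100a6 in moderate minus control, array weights 0.00824 for S100a13 in severe minus moderate, and the probe set with the largest interquartile range -0.146 for S100b there.

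With each array left out in turn, Mpo ranged from -0.0175 to 0.159 and S100a13 from -0.000285 to 0.0904 in inflamed minus control, and S100a13 from -0.0342 to 0.104 in severe minus control, -0.0407 to 0.15 in moderate minus control and -0.124 to 0.0673 in severe minus moderate. In moderate minus control the range was -0.0233 to 0.24 for S100a3, -0.0465 to 0.0368 for S100a6 and -0.279 to 0.0379 for S100g. In severe minus moderate it was -0.168 to 0.443 for S100a4, -0.0537 to 0.185 for S100a5 and -0.0171 to 0.219 for S100a16. Members called in moderate minus control ranged from 3 to 5, and genes called in severe minus moderate from 0 to 20.

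Samples with the same replicate number did not all deviate together (r from -0.0778 to 0.293), and no label pairs the mice. The highest r values were between severe and moderate colons, at 0.293 for replicate 1 and 0.254 for replicate 2, but -0.0302 for replicate 3. A fit with the replicate number as a block, which leaves out control 4 in effect because no inflamed colon has that number, called 6 members in inflamed minus control, where S100a3 was gained (0.347, adjusted p = 0.0365), 7 in severe minus control, 4 in moderate minus control, where S100a10 was lost (adjusted p = 0.0579), and 0 in severe minus moderate. With 3 or 4 arrays a group, a difference not called here may still exist. S100a3 and S100a5 were dim, had no value where dim genes were left out, and were not set against background signal.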
